A study of Homo sapiens with 3 samples.

Results

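The HOX cluster genes were examined in LX-2 cells, an established human hepatic stellate cell line, with or without recombinant human FGF19 (rhFGF19). Every gene whose symbol was HOX followed by the cluster letter A, B, C or D and a paralogue number was taken as a member. This rule found 37 members among 24254 gene symbols, 10 in the HOXA cluster and 9 each in HOXB, HOXC and HOXD. HOX antisense RNAs and the microRNA genes that lie in the clusters carry other symbols and were described separately. HOXA9 and HOXB1 were not analysed here.

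LX-2 cells received vehicle, rhFGF19 at 50 ng/mL or rhFGF19 at 100 ng/mL, and the poly(A) RNA of 1 culture per condition was sequenced. The rhFGF19 conditions are called the lower and the higher dose below. The 3 conditions shared the same cell line and differed in the agent only, as far as the labels say. Doses follow the sample titles, because another field of the sample records exchanges both doses and gives 72 h and 73 h of stimulation, where the series design and the paper give 24 h. With 1 library per condition, no difference below could be tested against the spread between cultures, so fold changes are descriptions of these libraries.

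HOX genes encode homeodomain transcription factors that give cells their position along the body axis. Genes of the same paralogue number in different clusters descend from a common ancestor, and within a cluster the low numbers lie at the end that is active earliest and most anteriorly in the embryo, whereas the high numbers act later and more posteriorly. Adult fibroblasts and other mesenchymal cells keep part of this pattern, so the set of HOX genes that a cultured line transcribes can be read as a positional code. Hepatic stellate cells are mesenchymal cells of the liver that store vitamin A when quiescent and make matrix when activated.

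Levels are FPKM, the number of fragments divided by transcript length and by the mapped total of a library, which can be compared between genes because they are set per length. Summed over all genes the FPKM values were 302243 in vehicle, 276690 at the lower dose and 281606 at the higher dose, and they hold no read counts, so the sequencing depth is unknown. Of the 10 markers of activated stellate cells or fibroblasts, 9 were listed at 1 FPKM or more in each library, and the list summed to 1104 FPKM in vehicle, 1159 at the lower dose and 1167 at the higher dose. COL1A2, a defining collagen chain, was listed at 0.03, 0.10 and 0.14 FPKM, against 78.35, 107.83 and 104.14 FPKM for COL1A1. Markers of quiescent stellate cells summed to 1.07, 1.65 and 1.89 FPKM over 6 genes, most of it LHX2 at 0.88, 1.33 and 1.48 FPKM. LRAT, the enzyme that stores vitamin A as esters, was listed at 0 in every library. Hepatocyte markers summed to 11.3, 12.49 and 11.44 FPKM over 5 genes, most of it SERPINA1, and ALB was listed at 2.16, 2.49 and 1.89 FPKM. Epithelial and endothelial markers did not exceed 0.47 FPKM, and the single blood marker analysed, CD68, stood at 47.53, 44.18 and 39.81 FPKM. The part of these other markers in the HOX values was not tested.

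The positions of the clusters are those of the deposited table, and all 37 overlapped the GRCh38 position of the same identifier in GENCODE v29. HOXA lies on the minus strand of chromosome 7, and HOXB spanned 187.9 kb on the minus strand at chr17:48540894-48728750. HOXC spanned 116.5 kb on the plus strand at chr12:53938831-54055327, and HOXD 98.2 kb on the plus strand at chr2:176092721-176190907. In HOXB, HOXB13 stands 98.4 kb from HOXB9, whereas the other neighbouring members of this cluster lie within 12.91 kb of each other or overlap. Annotated transcripts of HOX neighbours often overlap: 17 members overlapped another listed gene on the same strand, 21 overlapped one on the opposite strand, and 8 overlapped none. Whether the libraries kept strand is not stated, so reads of a member and of its antisense partner cannot be told apart, and same-strand pairs such as HOXB3 with HOXB4, HOXB7 with HOXB8 and HOXB9, HOXC4 with HOXC6, and HOXD10 with HOXD11 are uncertain in how reads were divided.

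The clusters also carry microRNAs. The 5p arms of the miR-196 family lie next to HOXA10, HOXB9 and HOXC10 and are known to target HOX messages. They are shown because their complementary sites sit in members measured here. The mature sequences are those of RefSeq on GRCh38.p14, with the seed, bases 2 to 8, in capitals. MIR196A1 on chromosome 17 and MIR196A2 on chromosome 12 give the same 5p arm, and MIR196B lies on chromosome 7. The 196a and 196b arms share their seed.
miR-196a-5p: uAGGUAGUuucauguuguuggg
miR-196b-5p: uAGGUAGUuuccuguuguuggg
miR-10a-5p: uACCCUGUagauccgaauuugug
The last of these, from MIR10A beside HOXB4, has another seed and is given for contrast.

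The letters ACTACCT, the DNA complement of the miR-196 seed, were searched on the transcript strand in the 3′ UTRs of GENCODE v29. They occurred in 7 of the 37 members (18.9%) and in 7.71% of 19115 protein-coding genes. They included HOXA5, HOXA7, HOXB6, HOXB7, HOXB13 and HOXC8. HOXB8 did not hold these letters, but its 3′ UTR held the most complementary window of any member, with 21 of 22 bases paired to miR-196a-5p and the remaining base, in capitals below, facing it as a G:U pair. In the HOXA7 window, 15 of 22 bases were complementary and the seed match is in capitals.
HOXB8, chr17:48612770-48612791, minus strand: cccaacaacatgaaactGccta
HOXA7, chr7:27154430-27154451, minus strand: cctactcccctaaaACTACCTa
HOXB8 was listed at 0.34 FPKM in vehicle, 0.33 at the lower dose and 0.51 at the higher dose, and HOXA7 at 1.92, 2.71 and 2.24 FPKM. Mature microRNAs were not measured in these poly(A) libraries. The row of the MIR196A1 gene, which lies within the span of HOXB7 on the same strand, was listed at 0.36, 0.71 and 1.0 FPKM, and its reads cannot be told apart from those of HOXB7.

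LX-2 cells listed HOX genes mainly from HOXB. Summed HOX FPKM was 99.44 in vehicle, 135.07 at the lower dose and 128.74 at the higher dose, of which HOXB made up 80.1%, 75.8% and 77.9%. HOXC followed with 9.67%, 11.6% and 11.3%, then HOXD with 5.65%, 7.03% and 6.0% and HOXA with 4.59%, 5.65% and 4.84%. Over all members, the order of the clusters was thus the same in each library. In a bulk sample, fewer cells that express a gene and less RNA per cell cannot be told apart, so these shares do not say how many cells used each cluster. Without HOXB2, the most abundant member, HOXB still held 74.0%, 69.7% and 71.7%. Among the 8 members that overlap no listed gene, its only representative, HOXB13, held 71.9%, 59.6% and 66.7%. Over these 8 members HOXA was second, with 20.6%, 30.9% and 22.3%, ahead of HOXC and HOXD. HOXA was represented by HOXA2, HOXA7, HOXA10 and HOXA13, HOXC by HOXC12 alone, and HOXD by HOXD12 and HOXD13. HOXC12 did not exceed 0.50 FPKM, so this order compares few genes and does not rank whole clusters. The order of the clusters below HOXB thus depended on which members were counted.

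**Figure D1:**
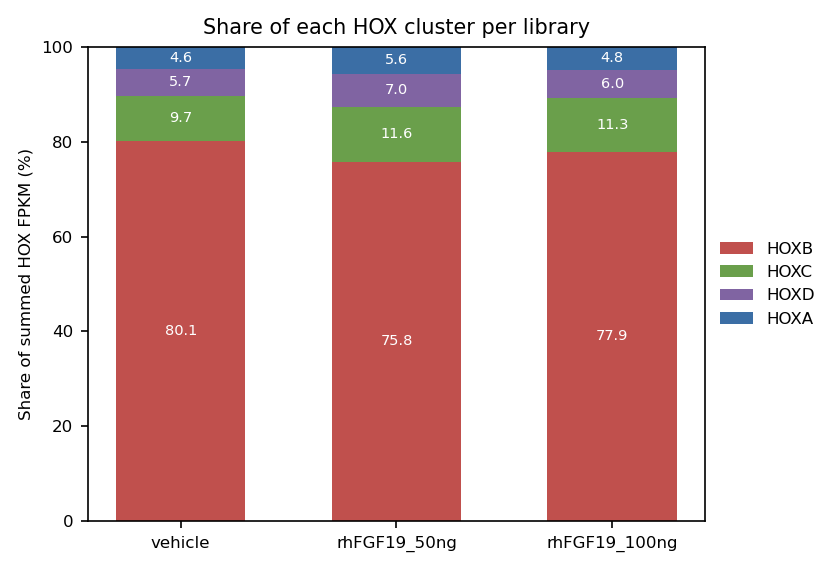
Stacked bars show the share of summed HOX FPKM, in percent, that each cluster held in the vehicle, 50 ng/mL and 100 ng/mL libraries, 1 library each. HOXB is the bottom block with 80.1%, 75.8% and 77.9%, and HOXA the top block with about 5%.

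By level, 17 of the 37 members (45.9%) reached 1 FPKM in vehicle, 22 (59.5%) at the lower dose and 20 (54.1%) at the higher dose. The same level was reached by 36.7%, 45.06% and 44.96% of all gene symbols. In HOXB, 8 of 9 members reached it in every library. HOXC counted 5, 7 and 6 such members, HOXD 3, 4 and 4, and HOXA 1, 3 and 2 of its 10. Median FPKM per cluster was 7.67, 8.25 and 8.75 for HOXB, 1.05, 1.63 and 1.66 for HOXC, 0.33, 0.59 and 0.73 for HOXD, and 0.33, 0.51 and 0.47 for HOXA.

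**Figure D2:**
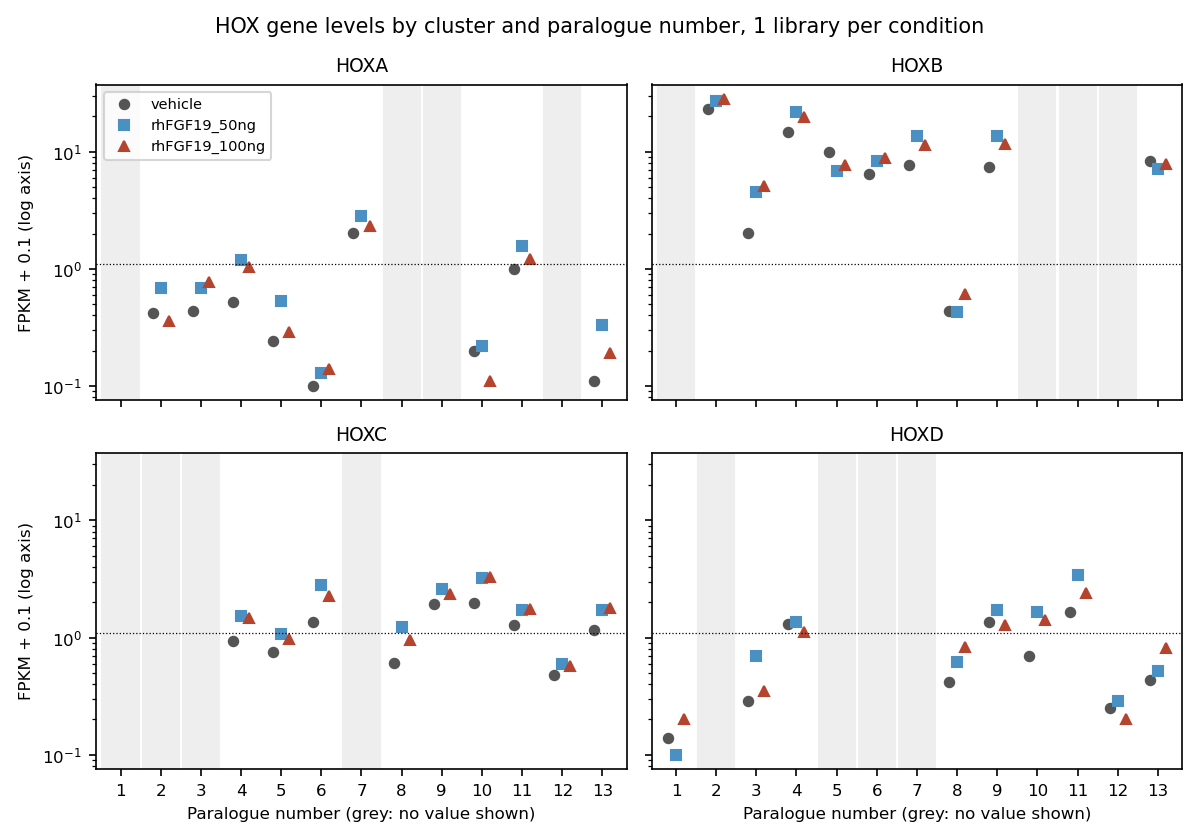
Each panel is a HOX cluster, with the paralogue number on the x axis and FPKM plus 0.1 on a log y axis. Circles, squares and triangles are the vehicle, 50 ng/mL and 100 ng/mL libraries, the dotted line marks 1 FPKM, and grey columns hold no value. HOXB members other than HOXB8 sit above the line in all 3 libraries, and most HOXA members sit below it.

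The anterior end of HOXB held the highest level. HOXB2, a hindbrain patterning gene, was listed at 23.21 FPKM in vehicle, 27.19 at the lower dose and 28.12 at the higher dose, above 91.6%, 93.1% and 93.3% of all symbols. HOXB3, its neighbour, had 1.93, 4.45 and 5.03 FPKM, with the vehicle library well below both rhFGF19 libraries. HOXB4, known for its role in blood stem cell growth, had 14.68, 21.58 and 19.52 FPKM. HOXB2 and HOXB4 were the 2 highest members in each library.

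The middle of HOXB was listed at intermediate levels with 1 exception. HOXB5, expressed in developing gut nerves and vessels, had 9.88 FPKM in vehicle and 6.72 and 7.66 FPKM in the rhFGF19 libraries, so vehicle was highest. HOXB6 had 6.40, 8.25 and 8.75 FPKM, and HOXB7 had 7.67, 13.42 and 11.32 FPKM. HOXB8, which lies between HOXB7 and HOXB9, stayed at or below 0.51 FPKM. The part of its miR-196 site in this level was not tested. HOXB9 had 7.32, 13.38 and 11.57 FPKM. HOXB13, the posterior member best known from prostate and distal gut, had 8.21, 7.02 and 7.77 FPKM, with the 3 libraries close together. HOXB8 and HOXB9 both lie within the annotated span of HOXB7, whereas HOXB13 overlaps no listed gene.

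HOXC members were lower and more even. HOXC10, a lumbar patterning gene, was listed at 1.89, 3.11 and 3.21 FPKM and HOXC9, a thoracic one, at 1.85, 2.50 and 2.25 FPKM. HOXC6 stood at 1.27, 2.69 and 2.15 FPKM, highest at the lower dose. These were the 3 HOXC genes with the highest mean. HOXC11 was listed at 1.19, 1.63 and 1.66 FPKM. HOXC13, required for hair shafts and nails, had 1.05, 1.63 and 1.70 FPKM. Both were lowest in vehicle. HOXC4 had 0.83, 1.42 and 1.37 FPKM and HOXC8 had 0.51, 1.14 and 0.85 FPKM. HOXC5 and HOXC12 remained below 1 FPKM, with 0.98 FPKM the highest value of either.

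In HOXD, HOXD11, a gene of the forelimb and kidney, was listed at 1.54, 3.35 and 2.31 FPKM and was the highest member in each library. HOXD9 had 1.25, 1.61 and 1.19 FPKM, and HOXD4 had 1.2, 1.27 and 1.02 FPKM, both highest at the lower dose and lowest at the higher dose. HOXD10, like HOXC10 a gene of the lumbar region and hindlimb, had 0.60 FPKM in vehicle, 1.55 at the lower dose and 1.32 at the higher dose. HOXD1, HOXD3, HOXD8, HOXD12 and HOXD13 stayed below 1 FPKM, the highest of their values being 0.73.

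HOXA was the lowest cluster by share over all members, though not over those that overlap no listed gene. HOXA7 was its highest member with the values given above, and HOXA11, which patterns forearm and uterus, had 0.89, 1.48 and 1.11 FPKM. HOXA4 had 0.42, 1.08 and 0.93 FPKM. Another 6 members, HOXA2, HOXA3, HOXA5, HOXA6, HOXA10 and HOXA13, never exceeded 0.67 FPKM. Among them HOXA6 was listed at 0, 0.03 and 0.04 FPKM. HOXA10, a gene of the uterus and lumbar spine, was listed at 0.10, 0.12 and 0.01 FPKM.

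Read by paralogue number, HOX FPKM was found in the anterior, middle and posterior groups, but unevenly within them. Paralogues 1 to 3 held 26.6%, 25.01% and 27.3% of the sum, paralogues 4 to 8 held 46.5%, 46.3% and 45.2%, and paralogues 9 to 13 held 26.9%, 28.7% and 27.6%. Paralogue 2 gave 23.7%, 20.6% and 22.0%, nearly all of it HOXB2, and paralogue 4 gave 17.2%, 18.8% and 17.7%. Paralogue 12 gave 0.53%, 0.51% and 0.44%, and paralogues 1, 3 and 8 gave 0.46%, 2.47% and 1.18% in vehicle. Within a paralogue group the clusters differed widely: HOXB13 was listed at 8.21 FPKM in vehicle, HOXC13 at 1.05, HOXD13 at 0.33 and HOXA13 at 0.01.

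The order of members was close between the libraries. Across the 37 genes, which are not independent replicates, Spearman's rho of FPKM was 0.96 between vehicle and the lower dose, 0.97 between vehicle and the higher dose and 0.97 between both rhFGF19 libraries. The same 8 genes, the HOXB members other than HOXB8, were the 8 highest in every library. The last of them was close to the next gene in vehicle, with HOXB3 at 1.93 FPKM and HOXA7 at 1.92.

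Fold changes were differences of log2(FPKM + 0.1), a scale that shrinks the change of genes with low values, for symbols whose mean over the 3 libraries reached 0.5 FPKM. Of the members, 26 passed and 11 did not, and 12422 symbols passed in all. Both doses are compared with the same vehicle library, so their fold changes are not independent of each other.

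At the lower dose, 6 of the 26 members (23.1%) exceeded vehicle by more than 2-fold, against 39.5% of all symbols, and 0 were more than 2-fold lower, against 1.75%. At the higher dose, 2 members (7.69%) were more than 2-fold higher, against 38.6%, and 0 were lower, against 1.47%. The counts of higher members were thus below the share of all symbols at both doses. The split depended on the scaling. After quantile normalization 0 members were higher and 0 lower at the lower dose, and 0 higher and 1 lower at the higher dose. With the trend on transcript length removed, 0 were higher and 2 lower at the lower dose and 0 of either at the higher dose. No share of all symbols past 2-fold is given under either setting, so these counts have no background. The median log2 fold change of members was 0.58 at the lower dose and 0.56 at the higher dose. All symbols had medians of 0.62 and 0.62, a shift of the whole table that differed with GC content, as given below. Relative to that shift, the member medians were −0.05 and −0.06.

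A member above vehicle was therefore not necessarily above the shift of the table. At the lower dose 23 of 26 members had a positive log2 fold change and at the higher dose 22 did. These were 10 and 9 after quantile normalization and 12 and 11 with the length trend removed. They were 24 and 24 as TPM, 22 and 21 with the median ratio set to 0, and 23 and 20 with the GC trend removed. Of all symbols 65.6% and 65.8% were positive in the deposited values. Measured against the all-symbol median, 12 members lay above and 14 below at the lower dose, and 11 above and 15 below at the higher dose. Among the 5217 symbols whose mean FPKM lay in the interquartile range of the members, 1.16 to 6.70, the median log2 fold change was 1.07 at the lower dose and 1.05 at the higher dose, higher than that of the members.

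**Figure D3:**
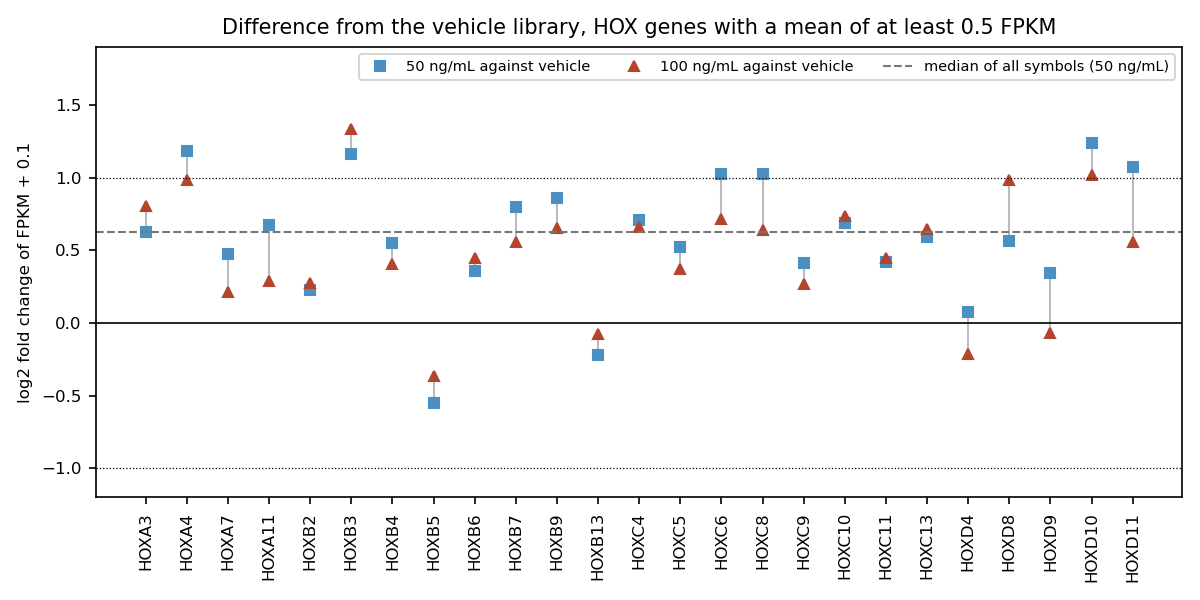
The log2 fold change of FPKM plus 0.1 against vehicle is plotted for 25 HOX genes that passed the filter, squares at 50 ng/mL and triangles at 100 ng/mL, 1 library each. The dashed line is the median of all symbols at 50 ng/mL (0.62), and dotted lines mark 2-fold. HOXB3 and HOXD10 exceed 2-fold at both doses, and HOXB5 and HOXB13 lie below 0 at both.

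The genes past 2-fold at the lower dose were HOXA4, HOXB3, HOXC6, HOXC8, HOXD10 and HOXD11, at least 1 from each cluster. HOXB3 had log2 fold changes of 1.16 at the lower dose and 1.34 at the higher dose, and HOXD10 of 1.24 and 1.02. These were the 2 members past 2-fold at both doses. HOXA4 had 1.18 and 0.99, HOXD11 1.07 and 0.56, HOXC6 1.03 and 0.72, and HOXC8 1.02 and 0.64. Each of the 6 overlaps another listed gene on its own strand, and HOXD10 overlaps HOXD11.

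At the other end, HOXB5 and HOXB13 had negative log2 fold changes at both doses. HOXB5 had −0.55 and −0.36, which is −1.17 and −0.98 relative to the all-symbol median. HOXB13 had −0.22 and −0.08, or −0.85 and −0.69 relative to that median. Within HOXB the fold changes thus ran from HOXB5 to HOXB3, the whole range of the members at the higher dose. HOXB2, the most abundant member, had 0.23 and 0.28, below the all-symbol median at both doses. With the GC trend removed, HOXB2 was instead at 0.35 and 0.39, beside 0.008 and 0.005 for all symbols. HOXB13 was then at −0.09 and 0.04, so the place of both genes relative to the table depended on this correction.

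By cluster, the log2 ratio of summed FPKM was 0.74 at the lower dose and 0.45 at the higher dose for HOXA, 0.36 and 0.33 for HOXB, 0.70 and 0.60 for HOXC, and 0.76 and 0.46 for HOXD. HOXB had the smallest ratio at both doses. Its lower share of the HOX sum in the rhFGF19 libraries restates this, because both come from the same sums. Between both rhFGF19 libraries, 0 of the 26 members were more than 2-fold apart, against 1.64% of all symbols. The median absolute log2 difference of members between these libraries was 0.19, beside 0.09 for all symbols. HOXD11, at 3.35 and 2.31 FPKM, had the lowest higher-dose value relative to the lower dose.

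Across the whole table, GC-rich transcripts had lower fold changes against vehicle than AT-rich ones, with a Spearman rho over genes of −0.76 at the lower dose and −0.77 at the higher dose. HOX transcripts were GC-rich, with a median of 55.2% over the members that passed against 51.2% over all symbols that passed. Among the 1577 symbols between 53.8% and 57.3% GC, the middle range of the members, the median log2 fold change was 0.00 at the lower dose and 0.01 at the higher dose, and 9.64% and 8.69% were more than 2-fold higher. Over the 26 members, rho of fold change with GC was −0.13 and −0.28. With the GC trend removed, 3 members (11.5%) were more than 2-fold higher at the lower dose, against 3.77% of all symbols, and 2 (7.69%) at the higher dose, against 3.40%. The member medians were then 0.40 and 0.37, beside 0.01 and 0.01 for all symbols. Whether the members stood above or below the table thus depended on this correction, and the part of GC content in the fold changes was not tested.

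HOXB3 and HOXA4 were past 2-fold at both doses with the GC trend removed, HOXB3 at 1.31 and 1.47 and HOXA4 at 1.32 and 1.11. HOXD11 was at 1.27 and 0.74, and HOXD10 at 0.93 and 0.72. HOXB5 remained negative at −0.71 and −0.53. HOXC8 was at 0.36 and −0.01, and HOXC6 at 0.75 and 0.45.

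**Figure D4:**
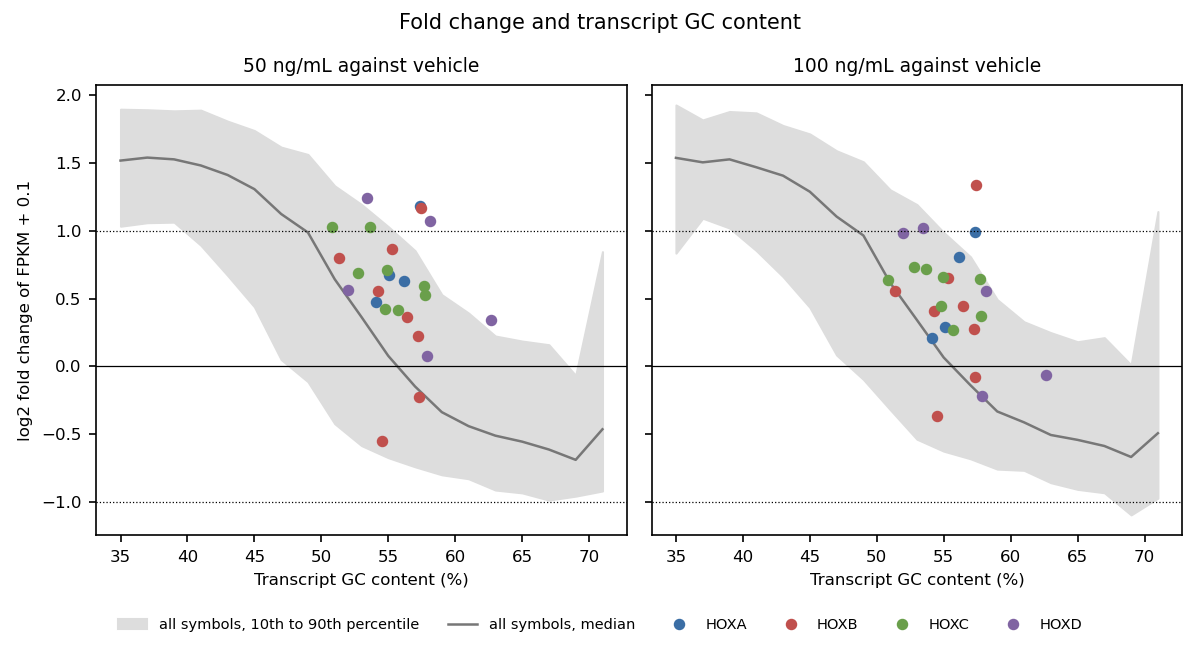
Points are 25 HOX genes that passed the filter, coloured by cluster, with transcript GC content in percent on the x axis and the log2 fold change of FPKM plus 0.1 against vehicle on the y axis, 50 ng/mL left and 100 ng/mL right. The grey line and band are the median and the 10th to 90th percentile of all symbols in 2% bins of GC, and dotted lines mark 2-fold. The line falls from about 1.5 at 35% GC to below 0 above 57% GC, and most HOX genes lie above it.

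Promoter sequences are shown for the members past 2-fold at the lower dose that have an entry in the RefSeq promoter table (GRCh38.p14), which runs from upstream of an annotated start to shortly after it. HOXB3, HOXC6 and HOXC8 have no entry there. In HOXA4 and HOXD10 the capitals mark CCAAT, read as ATTGG on the other strand, and in HOXD11 they mark TGATNNAT, the combined site of PBX and HOX proteins, read on the other strand.
HOXA4, chr7:27130708-27131007, minus strand: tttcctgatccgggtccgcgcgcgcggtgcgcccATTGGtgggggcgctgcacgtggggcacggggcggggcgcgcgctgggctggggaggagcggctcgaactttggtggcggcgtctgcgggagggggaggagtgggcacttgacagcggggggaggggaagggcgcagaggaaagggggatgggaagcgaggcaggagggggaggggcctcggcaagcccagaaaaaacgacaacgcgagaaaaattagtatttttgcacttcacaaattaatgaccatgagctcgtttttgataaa
HOXD10, chr2:176116528-176116827, plus strand: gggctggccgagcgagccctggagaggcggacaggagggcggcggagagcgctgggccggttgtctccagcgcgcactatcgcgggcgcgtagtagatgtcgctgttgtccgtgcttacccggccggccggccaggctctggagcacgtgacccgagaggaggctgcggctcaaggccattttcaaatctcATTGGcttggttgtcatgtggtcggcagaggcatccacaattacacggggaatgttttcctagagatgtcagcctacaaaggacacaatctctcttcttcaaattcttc
HOXD11, chr2:176107030-176107329, plus strand: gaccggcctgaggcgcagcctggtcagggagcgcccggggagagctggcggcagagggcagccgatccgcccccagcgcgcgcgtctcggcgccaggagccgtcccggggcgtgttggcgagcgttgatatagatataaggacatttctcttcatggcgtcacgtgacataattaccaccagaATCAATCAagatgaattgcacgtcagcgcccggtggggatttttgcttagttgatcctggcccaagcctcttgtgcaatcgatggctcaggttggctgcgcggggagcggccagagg

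In all, 25 promoters of 18 members were present, 7 of them of HOXA3, and HOXC4 and HOXC5 share 1 window. No HOXB member had an entry, so the counts below leave out the cluster with the largest share of HOX FPKM. Both strands were searched for the NF-Y motif CCAAT, the TATA box written as TATAAA, the STAT motif TTCNNNGAA and the PBX and HOX site TGATNNAT, none of which contains another. CCAAT was found in 16 of the 25 windows (64.0%) and in 34.6% of all 35116 promoters. TATAAA was found in 4 (16.0%), against 11.5%, and TGATNNAT in 2 (8.0%), against 7.40%, those of HOXA2 and HOXD11. TTCNNNGAA was found in 0 of 25, against 7.66%. The median ratio of observed to expected CpG was 0.85 in the HOX windows and 0.58 in all promoters. A match here is a run of letters, and binding was not measured.

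HOX proteins bind DNA with cofactors of the PBX, MEIS and PKNOX families. Of 9 cofactor genes 6 passed the filter. Among these, 3 were more than 2-fold higher at each dose, beside 39.5% and 38.6% of all symbols, and 0 were lower. MEIS3 was the most abundant, with 34.33 FPKM in vehicle, 23.37 at the lower dose and 23.11 at the higher dose. PBX2 followed with 9.73, 11.88 and 11.86 FPKM. The 3 higher genes were PBX3 with 1.34, 3.14 and 3.24 FPKM, PKNOX1 with 0.58, 1.94 and 1.74 FPKM, and MEIS2 with 0.34, 0.96 and 0.94 FPKM. Their transcripts are AT-rich, at 45.5%, 46.8% and 47.1% GC. With the GC trend removed 0 of the 6 cofactors were more than 2-fold higher at either dose, beside 3.77% and 3.40% of all symbols.

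Other genes inside the clusters or within 50 kb of their outermost members gave 46 rows, of which 10 passed the filter, and 2 were more than 2-fold higher at each dose, beside 39.5% and 38.6% of all symbols, and 0 were lower. HOTAIR, a long non-coding RNA read antisense to HOXC11, was listed at 0.24, 0.71 and 1.36 FPKM, and was the only one past 2-fold at both doses, with log2 fold changes of 1.25 and 2.10. Its partner HOXC11 had 0.42 and 0.45. HOXB-AS1, antisense to HOXB2 and HOXB3, had 1.23, 1.67 and 1.39 FPKM. The highest row was AC016739, a pseudogene beside HOXD, with 24.34, 16.06 and 13.89 FPKM, whose reads may be shared with its parent gene. AC103702, between HOXB9 and HOXB13, had 5.0, 4.87 and 5.74 FPKM in the row of identifier ENSG00000272763.

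Polycomb complexes keep HOX clusters silent where they are not used. Of 30 Polycomb genes 29 passed the filter, and 15 were more than 2-fold higher at the lower dose and 13 at the higher dose, beside 39.5% and 38.6% of all symbols, and 0 were lower, with medians of 1.04 and 0.95 beside 0.62 and 0.62. RBBP4 had 2.83, 9.61 and 10.12 FPKM, and EZH2, the enzyme that places H3K27 methylation, had 1.35, 4.72 and 4.67 FPKM. BMI1, of the other Polycomb complex, had 0.85, 2.95 and 2.94 FPKM. The 3 most abundant members differed from these in direction: RING1 had 78.87, 49.98 and 51.83 FPKM, PHC2 had 68.95, 45.96 and 47.52, and PHF19 had 64.88, 61.95 and 62.21. The transcripts of RBBP4, EZH2 and BMI1 have 45.4%, 44.7% and 39.9% GC and those of RING1, PHC2 and PHF19 have 60.5%, 60.0% and 56.9%. With the GC trend removed the medians were 0.14 and 0.20, and 1 and 0 genes exceeded vehicle by more than 2-fold, beside 3.77% and 3.40% of all symbols.

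Trithorax proteins act against Polycomb and keep HOX genes active. Of 18 genes 17 passed, 6 were more than 2-fold higher at each dose, beside 39.5% and 38.6% of all symbols, and 0 were lower, with medians of 0.51 and 0.45 beside 0.62 and 0.62. MEN1 was the most abundant at 35.29 FPKM in vehicle and 30.59 at the lower dose, with a log2 fold change of −0.23 at the higher dose, followed by CXXC1 at 32.02, 22.96 and 23.87 FPKM and HCFC1 at 21.87, 27.23 and 27.15 FPKM. Ranked by the smaller of both fold changes, RBBP5, PSIP1 and ASH2L came first, with log2 values of 1.60, 1.51 and 1.35 at the lower dose and 1.56, 1.65 and 1.31 at the higher dose. With the GC trend removed, 1 and 0 genes were past 2-fold, beside the same 3.77% and 3.40%.

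Retinoic acid sets HOX expression in the embryo, and anterior HOX genes respond to it. Of 16 genes of this pathway analysed, 7 passed the filter, with medians of −0.11 and −0.09 beside 0.62 and 0.62 for all symbols. With the GC trend removed the medians were 0.31 and 0.32, beside 0.008 and 0.005 for all symbols. ALDH1A3, which makes retinoic acid, had 2.01, 5.13 and 5.42 FPKM. CYP26B1, which breaks it down, had 0.36, 0.97 and 1.22 FPKM. These were the only 2 of the 7 past 2-fold, at both doses, beside 39.5% and 38.6% of all symbols. Both also remained so with the GC trend removed, beside 3.77% and 3.40% of all symbols. The receptors RXRB and RARA were listed at 28.19, 22.12 and 23.80 FPKM and at 10.73, 9.91 and 10.08 FPKM, and the binding protein CRABP2 at 11.23, 9.17 and 8.06 FPKM. Of the CDX and ParaHox genes, upstream regulators and relatives of HOX, 3 were analysed and 0 passed the filter, none exceeding 0.53 FPKM.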

How the data were processed

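The mRNA of LX-2 cells, 1 library per condition, was sequenced as paired-end poly(A) reads on an Illumina HiSeq instrument. The authors mapped reads with HISAT2 and deposited 1 FPKM value per gene and library, written to 2 decimals, for 26108 rows. Their methods mention logCPM, whereas the deposited values are FPKM. The submitters' processing notes name HISAT2 2.0, StringTie 1.3.0 and Bowtie 0.12.2 and the builds hg19 and mm8, without roles. The file's coordinates match GRCh38. FPKM keeps no counts, so depth is unknown, no interval or count test was possible, and low values are less certain than their decimals show. The values were used without further scaling.

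Rows were summed by symbol. Fold changes used log2(FPKM + 0.1) where the mean FPKM of a symbol reached 0.5, and 2-fold was the threshold, after the study's criterion. With 1 library per condition no p-values were computed. GC content and length were medians over the GENCODE v29 transcripts the table lists, found for all 37 members, and trends on them were taken out by lowess, span 0.3. Members and gene lists were chosen with earlier results of these data known. The values of 2 genes are not reported here. Every member at 1 FPKM or more in any library is named with its values. From each related list the 3 genes with the highest mean and up to 3 past 2-fold at both doses, ranked by the smaller of both fold changes, are named, and other genes, such as the MIR196A1 row and ALB, were named for their role after values were seen. The other homeobox genes are described in the closing section. Python 3.11.15, NumPy 2.4.6, pandas 2.3.3, statsmodels 0.14.6 and matplotlib 3.10.9 were used, and the scripts were tested on simulated data. Alternatives were other pseudocounts, filters and level thresholds, TPM, median and quantile scaling, removal of GC or length trends, and the omission of HOXB2 or of overlapping members.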

Additional observations from a re-analysis of the deposited data

Results flagged for a closer look

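Among the HOX genes whose values are reported here, 2 had rhFGF19 libraries on opposite sides of vehicle. With 1 library each the difference was not tested. HOXD4 had log2 fold changes of 0.076 at the lower dose and −0.215 at the higher dose, from 1.2, 1.27 and 1.02 FPKM. HOXD9 had 0.341 and −0.066, from 1.25, 1.61 and 1.19 FPKM. Both doses share the vehicle library. The SD of the log2 ratio between the rhFGF19 libraries was 0.32 over all symbols that passed the filter.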

How the results depend on the processing

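The count of members more than 2-fold higher, 6 at the lower dose and 2 at the higher dose, was 0 and 1 with a pseudocount of 1, 1 and 1 with the median ratio set to 0, and 0 and 0 after quantile normalization or with the length trend removed. It was 3 at the lower dose with the GC trend removed, and at the higher dose it was 4 with a pseudocount of 0.01 and 5 as TPM. Counts of lower members were 2 at the lower dose with the length trend removed and 1 at the higher dose after quantile normalization. The share of all symbols more than 2-fold higher was 39.5% and 38.6% as deposited and 3.77% and 3.40% with the GC trend removed. No such share is given under the other settings, so the member counts there have no background. Member medians turned negative under 2 alternatives, to −0.116 and −0.174 after quantile normalization and −0.047 and −0.057 with the length trend removed. The all-symbol median at the lower dose was 0.62 as deposited, 0.77 as TPM, 0.40 with the median ratio set to 0 and 0.10 after quantile normalization. Members at 2 FPKM or more numbered 7, 13 and 13, and 30 reached 1 TPM in vehicle, where TPM rescales every value upward. The HOXB share was 74.0%, 69.7% and 71.7% without HOXB2 and 71.9%, 59.6% and 66.7% over the 8 members that overlap no listed gene. The cause of the other moves was not tested. No paired analysis was possible because there was 1 library per condition. Depth is unknown, so what it limits could not be stated.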

Other observations

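Homeobox genes outside the HOX clusters gave a background for the HOX values. The PBX, MEIS and PKNOX cofactors and the CDX and ParaHox genes, described above, were kept out of this list. Of 83 such genes analysed, 28 reached 1 FPKM in vehicle (33.7%), 35 at the lower dose (42.2%) and 33 at the higher dose (39.8%). Among 40 genes past the filter, 12 were over 2-fold higher at the lower dose and 9 at the higher dose, beside 39.5% and 38.6% of all symbols, 0 were lower, and the medians were 0.59 and 0.61. With the GC trend removed, 4 and 2 were more than 2-fold higher, beside 3.77% and 3.40% of all symbols. The most abundant by mean were TGIF2, a repressor of TGF-β responses, with 6.43, 10.73 and 10.87 FPKM, HLX, a gene of liver and gut mesenchyme, with 8.79, 9.50 and 9.01 FPKM, and NKX2-5, the cardiac regulator, with 11.88, 6.52 and 7.27 FPKM. SIX4 had 0.37, 1.56 and 1.68 FPKM, ZHX1 had 0.23, 1.05 and 0.99 FPKM, and ADNP had 2.77, 8.74 and 8.29 FPKM, the first of the list by the smaller of both fold changes. Their transcripts have 45.9%, 39.3% and 42.4% GC. HOXB2, at 23.21 FPKM or more, exceeded every gene of this list in each library. The cofactor MEIS3, which is not in this list, was above HOXB2 in vehicle, at 34.33 FPKM, and below it at both doses.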
